A study of Mus musculus with 6 samples.

Results

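The nuclear genes of the mitochondrial respiratory chain and of ATP synthase were followed in the liver of mice fed collagen peptide in place of part of the casein. They comprised a list of 58 genes, grouped by complex: 31 of complex I (the Nduf genes), 7 of complex III (the Uqcr genes and Cyc1), 10 of complex IV (the Cox genes), 9 of ATP synthase, also called complex V (the Atp5 genes), and Cycs, which encodes cytochrome c. Every probe set annotated to exactly 1 of these symbols was taken, which gave 123 of the 45037 probe sets for 57 of the 58 genes, out of 18193 genes on the array. Cox7b had no probe set of its own in the annotation used here. Another 5 probe sets that name a member together with a second gene were not used.

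Livers came from 2 groups of 3 male BALB/cCrSlc mice, an inbred albino strain, aged 17 weeks and killed in the morning after 3 h without food. The 6C+4CP mice had eaten, for 10 weeks, an AIN-93M-based low-protein diet with 6% casein and 4% fish-derived collagen peptide, a mixture of short collagen fragments. The 10C mice had eaten the same kind of diet with 10% casein and no collagen peptide, so both groups were on a low-protein diet, and the effect of less casein and that of added peptide cannot be told apart. The 3 mice of each diet were picked from 12 for a medium ratio of weight gain to food intake, each gave 1 Affymetrix 3' expression array, and one further group that the design text counts is not analysed here.

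The respiratory chain passes electrons from NADH and other donors to oxygen through protein complexes of the inner mitochondrial membrane. Complex I takes electrons from NADH to coenzyme Q, complex III passes them on to cytochrome c, and complex IV, cytochrome c oxidase, gives them to oxygen, while complexes I, III and IV pump protons that ATP synthase uses to make ATP. Hepatocytes are rich in mitochondria and draw on this chain for fatty acid oxidation, gluconeogenesis and the urea cycle, and apart from a few subunits encoded in mitochondrial DNA all subunits are made from nuclear genes.

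The values are the authors' processed values, and their log base is unknown, so they are read as log2. Array medians lay between 6.306 and 6.308, and precision is limited by the 3 arrays per diet. Most probe sets carry 1 value shared by all 6 arrays: 7791 of 45037 (17.3%) ranged over more than 0.01 and are called varying, and a shared value does not show whether a level differed between mice. The hepatocyte markers Ttr, Apoa1 and Cps1 averaged 13.89, 13.75 and 13.23 over the 6 livers. Of the 14 cell type lists none had a probe set called between the diets by limma, but 8 of their 42 varying probe sets (19.0%) had an unadjusted p under 0.05, against 13.1% of all varying probe sets. The diets separated at 11 of the 42 (19.9% of all varying probe sets do so), 8 of them lower in 6C+4CP: Cps1 (-0.27), 3 probe sets of Apoa1 (-0.11 each), Glul (-0.13), Hal (-0.26), the B cell marker Ighm (-0.66) and the T cell marker Cd8a (-0.054). The 3 higher were Hsd17b13 (0.20), Ttr (0.032) and the adipocyte marker Cidec (0.20), and the part of these shifts in the members' differences was not tested. The Cd8a and Cidec probe sets averaged 6.14 and 6.26, below the array medians. All other probe sets of Ighm and Cd8a carried shared values, as did those of the B cell markers Cd79a, Cd79b and Ms4a1. The diets overlapped at a further probe set of Glul (-0.068), at one of Apoa1 (-0.061) and at the other Ttr probe sets. The 3' minus 5' difference of the Actb control probe sets was 1.15, 1.69 and 1.24 in 6C+4CP mice 1, 2 and 3, against 1.18, 1.23 and 1.27 in 10C mice, so the RNA of 6C+4CP mouse 2 stood apart in this measure of integrity. Without that mouse the counts below moved little, with 40 of 64 varying members lower in place of 42 and a median difference of -0.020 in place of -0.018.

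Of the 123 member probe sets 64 varied (52.0%), and they represent 40 genes. The other 59 carried a shared value, and for 17 genes this held for every probe set. These 17 were 10 of complex I (Ndufa2, Ndufa4, Ndufa5, Ndufa9, Ndufa12, Ndufa13, Ndufb3, Ndufb4, Ndufb8 and Ndufb10), 4 of complex IV (Cox4i1, Cox6c, Cox7a2 and Cox7c) and 3 of ATP synthase (Atp5a1, Atp5c1 and Atp5e). Among them are core parts, such as Cox4i1, the regulatory subunit of cytochrome c oxidase in most tissues. Others are Atp5a1, the alpha subunit of the catalytic head of ATP synthase, and Atp5c1, the gamma subunit of its central stalk. Nothing can be said about their response to the diet. Ndufa4 keeps its Nduf name and is listed here with complex I, although its protein is now counted with complex IV. None of the 21 member probe sets with a mean below 8 varied, while 4368 of all 39545 probe sets at that level did. With a mean from 8 to 10, 12 of 17 members varied (70.6%), against 58.1% of all, and with a mean from 10 to 12, 46 of 75 (61.3%), against 75.1%.

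Between the diets the measured differences of the varying member probe sets were small. Member probe sets with a shared value cannot show a difference. In limma over all probe sets, 0 of the 123 member probe sets passed an adjusted p (Benjamini-Hochberg) of 0.05. The smallest adjusted p was 0.619 among the 64 varying ones, and among the others it was 0.504, at an Ndufs4 probe set whose values ranged over only 2e-09. Over all probe sets 0.242% passed (109 of 45037), 0.149% as higher and 0.0933% as lower in 6C+4CP, and 6 of the 109 varied, 0.077% of the varying ones. Of the 64 varying members 22 were higher and 42 lower in 6C+4CP, with a median difference (6C+4CP minus 10C) of -0.018 and a range from -0.25 to 0.26 on the log2 scale. Over all varying probe sets the median difference was -0.0040 and 52.1% were lower. The count of lower members rests partly on single arrays: it was 30 of 64 without 10C mouse 3, with a median of 0.0050, and 33 without 6C+4CP mouse 1, with a median of -0.0020.

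The sizes of the differences were small beside those of the other varying probe sets. Only 4 of the 64 members (6.25%) differed by more than 0.2, against 26.4% of all varying probe sets, and 11 (17.2%) by more than 0.1, against 45.1%. At a mean level from 10 to 12, where 46 of the members lie, the median size of the difference was 0.0457 for members and 0.121 for all varying probe sets, while the median spread (SD) within a diet was 0.0686 for members and 0.127 for all. In 45 of the 64 members (70.3%) the spread between mice of a diet exceeded the difference between the diets, against 56.4% of all varying probe sets. The 95% interval of the limma difference lay within 0.5 on either side of 0, a 1.41-fold change, for 58 of the 64, and it included 0 for 61. The widest, that of Ndufa8, reached from -0.79 to 0.29. These intervals are for single probe sets and are not adjusted for their number, and in a piece of whole liver fewer cells of a type and less RNA per cell cannot be told apart.

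**Figure D1:**
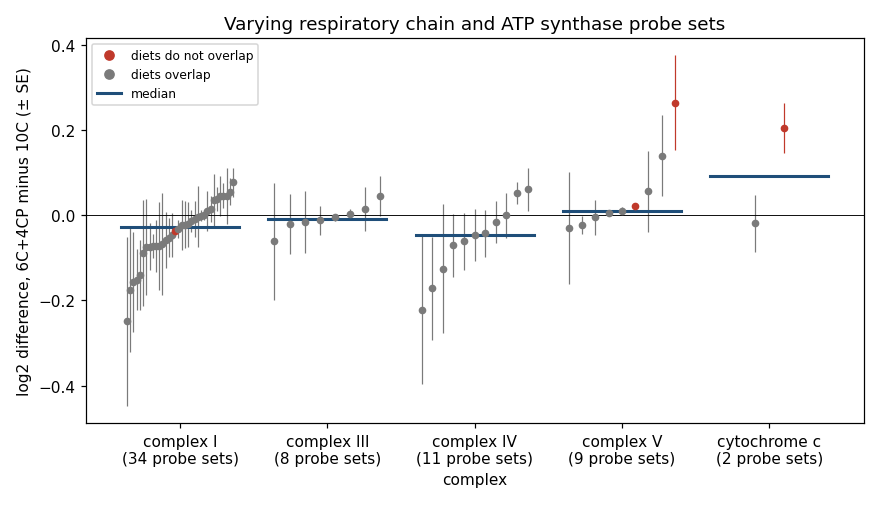
Difference between the diets (6C+4CP minus 10C, log2 scale, vertical axis) of each of the 64 varying member probe sets, sorted within its complex (horizontal axis). Points are limma differences over 3 mice per diet with their standard errors, red points are the 4 probe sets whose diets do not overlap, and blue lines are medians, which run from -0.046 in complex IV to 0.0092 in complex V for the 4 complexes.

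At 4 of the 64 varying members (6.25%) the diets separated, with no value of one inside the range of the other. The share over all varying probe sets was 19.9%. The 4 were Cycs, Atp5o and Atp5h, higher in 6C+4CP, and Ndufc1, lower. An unadjusted limma p under 0.05 was reached by 3 of the 64 (4.69%), against 13.1% of all varying probe sets. The upstream sequences below are those of the members with the widest differences or the clearest variation between mice (Cycs, Atp5o, Cox6a1, Cox8a and Ndufa8). Each is the 250 bases before the annotated start in RefSeq on GRCm38.p6, on the minus strand, at chr6:50566570-50566819, chr16:91931631-91931880, chr5:115348959-115349208, chr19:7217617-7217866 and chr2:36049339-36049588 in that order. Capitals mark matches on either strand to 3 motifs of factors known to act on respiratory chain promoters, CGCANGCG (NRF1), CCGGAAG (GABP, also called NRF2) and TGACGTCA (CREB).
Cycs: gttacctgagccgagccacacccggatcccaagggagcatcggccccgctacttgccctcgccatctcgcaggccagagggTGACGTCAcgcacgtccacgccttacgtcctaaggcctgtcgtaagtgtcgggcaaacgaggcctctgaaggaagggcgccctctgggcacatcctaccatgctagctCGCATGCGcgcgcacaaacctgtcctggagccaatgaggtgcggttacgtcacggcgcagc
Atp5o: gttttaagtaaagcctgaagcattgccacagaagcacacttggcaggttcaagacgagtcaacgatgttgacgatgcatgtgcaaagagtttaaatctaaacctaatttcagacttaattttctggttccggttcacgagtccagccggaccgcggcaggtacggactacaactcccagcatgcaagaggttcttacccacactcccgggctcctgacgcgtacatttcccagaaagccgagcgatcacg
Cox6a1: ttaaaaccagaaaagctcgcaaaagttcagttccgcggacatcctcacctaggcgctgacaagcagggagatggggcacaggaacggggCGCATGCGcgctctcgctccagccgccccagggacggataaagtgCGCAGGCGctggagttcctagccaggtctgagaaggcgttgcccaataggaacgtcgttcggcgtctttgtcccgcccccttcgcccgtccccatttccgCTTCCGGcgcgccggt
Cox8a: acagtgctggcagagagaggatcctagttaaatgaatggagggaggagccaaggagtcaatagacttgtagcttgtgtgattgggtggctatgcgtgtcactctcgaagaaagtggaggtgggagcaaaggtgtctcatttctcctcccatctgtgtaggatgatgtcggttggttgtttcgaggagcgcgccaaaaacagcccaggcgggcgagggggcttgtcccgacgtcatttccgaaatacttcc
Ndufa8: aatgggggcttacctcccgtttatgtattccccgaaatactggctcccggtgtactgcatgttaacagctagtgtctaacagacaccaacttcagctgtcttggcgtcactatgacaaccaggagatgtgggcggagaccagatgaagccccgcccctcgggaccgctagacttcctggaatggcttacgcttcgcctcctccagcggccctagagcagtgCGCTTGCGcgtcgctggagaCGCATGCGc
Cycs held 1 CREB and 1 NRF1 match, Cox6a1 held 2 NRF1 matches and 1 GABP match, and Ndufa8 held 2 NRF1 matches, while these letters were not in the windows of Atp5o and Cox8a. RefSeq gave an upstream window for 48 member genes and for 27025 genes in all. NRF1 matched 11 of the 48 (22.9%), against 7.65% of all genes, and its longer form, with a G before and a C after, matched 6 (12.5%), against 4.23%. GABP matched 9 (18.8%), against 7.83%, and CREB 4 (8.33%), against 1.77%. CCAAT, the motif of NF-Y, matched 18 (37.5%), against 37.5%, and the Sp1 motif GGGCGGGG matched 8 (16.7%), against 18.0%. Neither TGACCTTTG (ERR alpha) nor GCCATTTT (YY1) matched a member window, against 0.485% and 1.23% of all genes. Matches in the printed windows did not overlap each other, the members' windows had a median GC content of 57.6% against 52.4% for all windows, and the matches describe letters, not bound sites.

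Cycs encodes cytochrome c, the small carrier between complexes III and IV. Its probe set 1456071_a_at read 12.21, 12.03 and 12.09 in 6C+4CP mice 1 to 3, against 11.93, 11.93 and 11.86 in 10C mice. Every 6C+4CP mouse lay above every 10C mouse, with 6C+4CP mouse 1 highest and 10C mouse 3 lowest. The difference was 0.20 (SE 0.059), or 1.15-fold, which did not pass limma's adjusted threshold (adjusted p = 0.636), and it lay between 0.15 and 0.25 when any 1 array was left out. The second varying Cycs probe set, 1422484_at, read 10.64, 10.52 and 10.56 in 6C+4CP mice, against 10.58, 10.70 and 10.49 in 10C mice. Its diets overlapped, and its difference of -0.019 (SE 0.067) had the other sign. Both remaining Cycs probe sets carried shared values and could not show a difference. Only 1422484_at could be set beside the first, and it did not show the difference.

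Complex V, ATP synthase, had 9 varying probe sets for 6 of its 9 genes, of which 6 were higher and 3 lower in 6C+4CP. The median difference was 0.0092 and the range -0.031 to 0.26. The mean of the 9 was 10.98, 11.01 and 11.02 in 6C+4CP mice, against 10.93, 10.98 and 10.95 in 10C mice. The SD over the 3 mice was 0.024 in 6C+4CP and 0.028 in 10C, and 10C mouse 2 lay just above 6C+4CP mouse 1. Atp5o encodes OSCP, the stalk subunit that joins the catalytic head to the membrane part. Its probe set 1437164_x_at read 9.69, 9.66 and 9.51 in 6C+4CP mice, against 9.42, 9.49 and 9.16 in 10C mice. The diets did not overlap, although 6C+4CP mouse 3 and 10C mouse 2 lay close together, and 10C mouse 3 was the lowest. The difference of 0.26 (SE 0.11), 1.20-fold, was the highest of all members and was not called (limma adjusted p = 0.704). The second Atp5o probe set, 1416278_a_at, read 10.83, 10.84 and 10.82 in 6C+4CP mice, against 10.83, 10.82 and 10.82 in 10C mice, a difference of 0.0056 (SE 0.0056). The difference of the first was not seen in the second, and the suffix of the first marks a probe set that can bind more than 1 transcript.

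Atp5h encodes subunit d of the peripheral stalk. Its probe set 1435112_a_at read 11.62, 11.63 and 11.61 in 6C+4CP mice, against 11.60, 11.60 and 11.59 in 10C mice. The mice of each diet lay very close together, and the diets separated at a difference of 0.021 (SE 0.0069, limma adjusted p = 0.704), and the second Atp5h probe set overlapped at 0.0092. In a limma fit to varying probe sets only, the SE of the first was 0.030 (adjusted p = 0.823). Atp5f1, subunit b of the same stalk, read 11.91, 11.73 and 11.91 in 6C+4CP mice, against 11.70, 11.84 and 11.58 in 10C mice, a difference of 0.14 (SE 0.094), with 6C+4CP mouse 2 inside the 10C range. Atp5b, the catalytic beta subunit, differed by -0.0054 (SE 0.041), and Atp5j, coupling factor 6, by -0.023 (SE 0.021). The 2 probe sets of Atp5d, the delta subunit of the central stalk, differed by 0.056 and -0.031, with opposite signs and standard errors of 0.096 and 0.13.

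Complex I had 34 varying probe sets for 21 of its 31 genes, of which 10 were higher and 24 lower in 6C+4CP. Their median difference was -0.028, and the range was -0.25 to 0.077. The mean of the 34 was 10.22 ± 0.033 in 6C+4CP mice and 10.26 ± 0.052 in 10C mice (SD, n = 3 each). Without 10C mouse 3, 15 of the 34 were lower and the median was 0.0050, and without 6C+4CP mouse 1 the median was -0.0052, so the lower tilt of complex I rested on single mice.

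Ndufc1 is an accessory subunit of the membrane arm and was the only varying member lower without overlap. It read 10.03, 10.01 and 10.01 in 6C+4CP mice, against 10.07, 10.04 and 10.05 in 10C mice. The difference of -0.038 (SE 0.010), 0.974-fold, had the smallest adjusted p of the varying members in the fit to all probe sets (limma, 0.619). Its mice lay close together, with SDs of 0.0075 in 6C+4CP and 0.017 in 10C. In the limma fit to varying probe sets only, its SE was 0.031 and its adjusted p 0.637. The smallest adjusted p of the members was there that of Cycs (limma, 0.229). Its neighbour in the membrane arm, Ndufc2, read 9.36, 9.33 and 9.56 in 6C+4CP mice, against 9.54, 9.56 and 9.60 in 10C mice, a difference of -0.15 (SE 0.072). There 6C+4CP mouse 3 lay inside the 10C range.

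Ndufa8, an accessory subunit with paired cysteine motifs that is needed for assembly, had the lowest difference. It read 10.79, 10.57 and 10.79 in 6C+4CP mice, against 11.11, 11.19 and 10.59 in 10C mice. The first 2 of these 10C mice stood above all others, while 10C mouse 3 lay near the lowest 6C+4CP mouse, so the diets overlapped. The difference of -0.25 (SE 0.20, limma adjusted p = 0.852) was smaller than the spread among the 10C mice (SD 0.33), and it was -0.44 without 10C mouse 3 and -0.14 at its smallest when another array was left out.

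**Figure D2:**
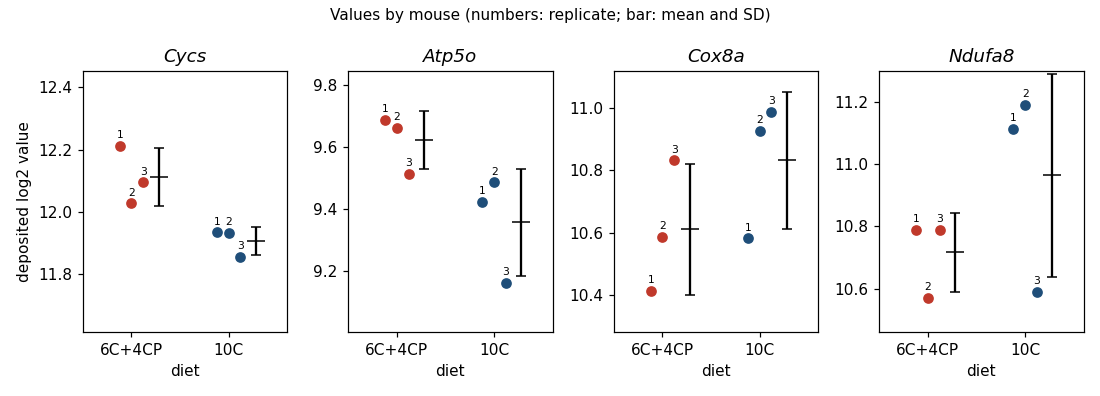
Deposited log2 values (vertical axis, same span in each panel) by diet (horizontal axis) of 1 probe set each of Cycs, Atp5o, Cox8a and Ndufa8 in the 6 mice. Red points are 6C+4CP mice and blue points 10C mice, numbered by replicate, and bars are means with SD; the diets separate for Cycs and Atp5o and overlap for Cox8a and Ndufa8.

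The Ndufs and Ndufv genes of the list encode part of the matrix arm of complex I, which holds the flavin and the iron-sulphur clusters. They gave 1 to 6 varying probe sets per gene. Ndufs7, which carries the last cluster before coenzyme Q, read 10.13, 10.14 and 9.98 in 6C+4CP mice, against 10.10, 10.23 and 10.34 in 10C mice, a difference of -0.14 (SE 0.083). The diets overlapped at 10C mouse 1, and the second Ndufs7 probe set had the same sign at -0.072 (SE 0.10). The 3 probe sets of Ndufv2, the small flavoprotein subunit, were all lower, at -0.058, -0.16 and -0.033, each with overlapping diets. Ndufs8, another iron-sulphur subunit, had 6 varying probe sets, of which 4 were lower and 2 higher, from -0.089 to 0.046. Ndufv1, the NADH-binding subunit, differed by 0.035 (SE 0.061), Ndufs1, the largest subunit, by -0.0089 (SE 0.042), and Ndufs3 by -0.073 (SE 0.061). Ndufs4, an accessory subunit of this arm whose loss causes mitochondrial disease, differed by 0.038 (SE 0.028). The Ndufs and Ndufv genes therefore gave differences of both signs.

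Among the other accessory subunits Ndufb5 was the highest of complex I. It read 10.98, 10.96 and 10.98 in 6C+4CP mice, against 10.86, 10.96 and 10.87 in 10C mice, and 10C mouse 2 lay among the 6C+4CP mice. The difference was 0.077 (SE 0.034, limma adjusted p = 0.704). Ndufa10 read 10.49, 10.48 and 10.54 in 6C+4CP mice, against 10.61, 10.58 and 10.54 in 10C mice, a difference of -0.073 (SE 0.028), with 6C+4CP mouse 3 just above 10C mouse 3. Ndufa1, a small membrane arm subunit encoded on the X chromosome, was at 0.055 (SE 0.032) on average, and the 3 varying probe sets of Ndufa7 gave 0.046, -0.015 and -0.0033. Ndufa6 and one Ndufb7 probe set were the closest to equal, at 0.00067 and -0.0012.

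Complex III had 8 varying probe sets for all 7 genes, 3 higher and 5 lower in 6C+4CP, within -0.062 to 0.045 and with a median of -0.0088. The sign of this median was not stable: it was 0.015 with quantile normalization, and 0.0012, 0.0014 and 0.0075 without 10C mouse 1, 10C mouse 2 or 6C+4CP mouse 1. Their mean was 11.13 ± 0.029 in 6C+4CP mice and 11.13 ± 0.028 in 10C mice (SD, n = 3 each). None separated the diets, and in all 8 the spread within a diet exceeded the difference. Uqcrfs1, the Rieske iron-sulphur protein, read 10.90, 10.90 and 10.92 in 6C+4CP mice, against 10.91, 10.92 and 10.91 in 10C mice. These were among the most even values of the set, with a difference of -0.0052 (SE 0.0074) and a 95% interval from -0.025 to 0.015. They ranged over 0.023, not far above the 0.01 that marks a varying probe set. In the limma fit to varying probe sets only, the SE was 0.030, so the narrow interval depends on the fit. Cyc1, the cytochrome c1 subunit that hands electrons to cytochrome c, differed by 0.014 (SE 0.052). Uqcrc1, the first core protein, read 10.36, 10.57 and 10.65 in 6C+4CP mice, against 10.44, 10.52 and 10.80 in 10C mice. It had the widest spread of the complex and a difference of -0.062 (SE 0.14). Uqcrc2, the second core protein, gave 0.045 and -0.012 from its 2 probe sets.

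Complex IV had 11 varying probe sets for 5 of the 9 genes with a probe set, 2 higher and 9 lower in 6C+4CP. The median difference was -0.046 and the range -0.22 to 0.060. The median was -0.10 without 10C mouse 1, -0.076 without 6C+4CP mouse 3, -0.025 without 6C+4CP mouse 1 and -0.010 without 10C mouse 3, so its size moved with single mice while its sign did not. Their mean was 11.58 ± 0.074 in 6C+4CP mice and 11.64 ± 0.094 in 10C mice (SD, n = 3 each), so the spread between mice of a diet exceeded the difference. Cox8a, the smallest nuclear subunit, read 10.41, 10.59 and 10.83 in 6C+4CP mice, against 10.58, 10.93 and 10.99 in 10C mice by probe set 1416112_at. Mouse 1 was the lowest of each diet, and 6C+4CP mice 2 and 3 lay inside the 10C range. The difference was -0.22 (SE 0.17, limma adjusted p = 0.852), and a second Cox8a probe set, 1448222_x_at, gave -0.17 (SE 0.12).

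The same mice were the lowest and the highest of their diet at most complex IV probe sets. Mouse 1 was the lowest of the 6C+4CP mice at 10 of 11 probe sets, and mouse 3 was the highest at 8 of 11. Among the 10C mice mouse 1 was the lowest at 8 of 11 and mouse 3 the highest at 8 of 11. Over all varying probe sets 6C+4CP mouse 1 was the lowest of its diet in 29.0% and 10C mouse 1 in 31.3%, while 10C mouse 3 was the highest of its diet in 31.0% and the lowest in 46.6%. Several probe sets measure the same gene (4 of the 11 are Cox5b), so the 11 are not independent. The replicate numbers are not taken here to pair mice across diets.

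Cox6a1, a subunit at the dimer interface, also had mouse 1 lowest in each diet at probe set 1417418_s_at, with 11.07, 11.25 and 11.39 in 6C+4CP mice, against 11.12, 11.52 and 11.45 in 10C mice, where mouse 2 was the highest. Its difference of -0.13 (SE 0.15) had the opposite sign of the other Cox6a1 probe set, 1417417_a_at, at 0.052 (SE 0.026). Cox6b1, which faces the intermembrane space, differed by -0.043 and -0.071 over its 2 probe sets. The 4 varying probe sets of Cox5b, the zinc-binding subunit, ran from -0.062 to -0.00070. Cox5a ran against this order in both diets. It read 12.50, 12.37 and 12.39 in 6C+4CP mice, against 12.38, 12.40 and 12.29 in 10C mice, with 6C+4CP mouse 1 highest and 10C mouse 3 lowest, and a difference of 0.060 (SE 0.050).

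**Figure D3:**
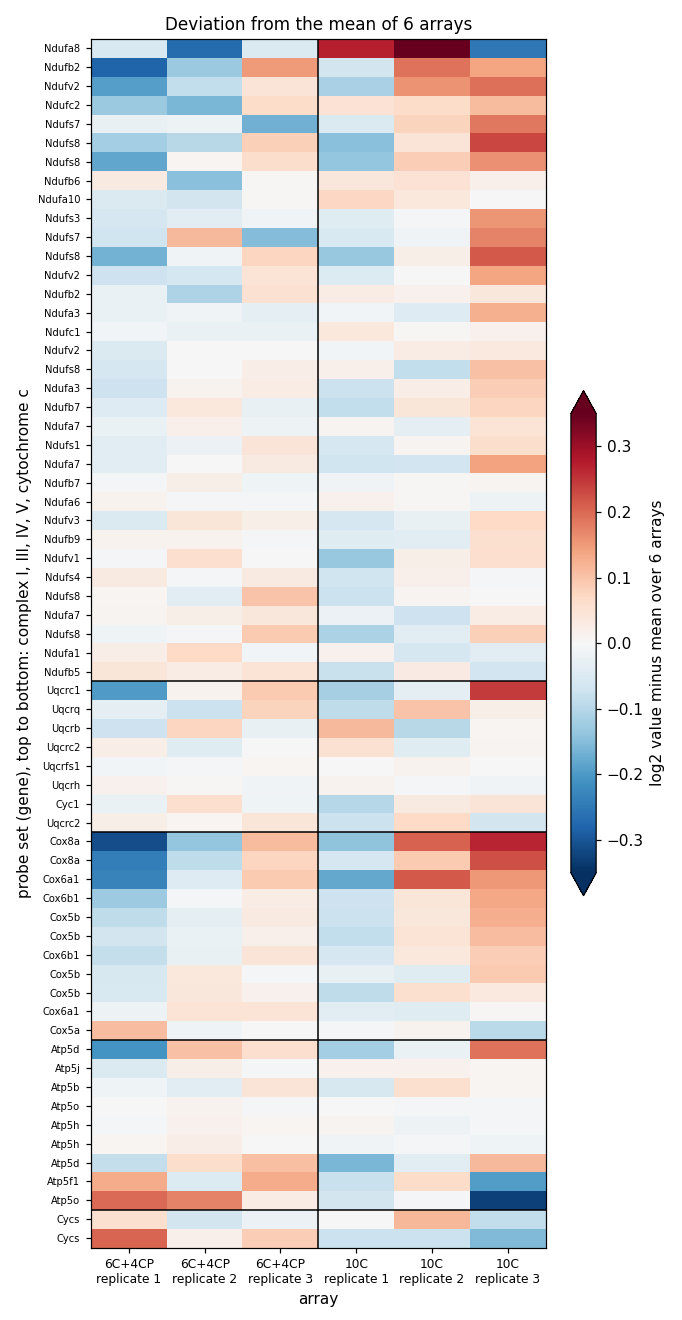
Deviation of each varying member probe set (rows, by gene, sorted by difference within complexes I, III, IV, V and cytochrome c from the top) from its own mean over the 6 arrays (columns, 6C+4CP left of 10C), with colour from blue (below, log2 scale) to red (above). The column of 10C mouse 3 is red over most of complexes I and IV, where it was the highest array at 29 of the 64 probe sets in all, and blue at Atp5o, Atp5f1 and Cycs.

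The same mice stood out over the whole set. 10C mouse 3 was the highest of the 6 arrays at 29 of the 64 varying members (45.3%), against 16.0% of all varying probe sets, and 10C mouse 1 was the lowest at 19 and 6C+4CP mouse 1 at 18. Complex I shared the order of complex IV, with 10C mouse 3 the highest of its diet at 24 of 34 probe sets and 10C mouse 1 the lowest at 23. In complex V no mouse was the lowest of its diet at more than 4 of 9. The median over all varying probe sets was 7.64 on 10C mouse 3, the lowest of the 6 arrays, so the members of complexes I and IV were high on an array where varying probe sets in general were low. With every array centred on the median of the varying probe sets, 44 of the 64 members were lower in 6C+4CP in place of 42, and the median difference was -0.023.

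**Figure D4:**
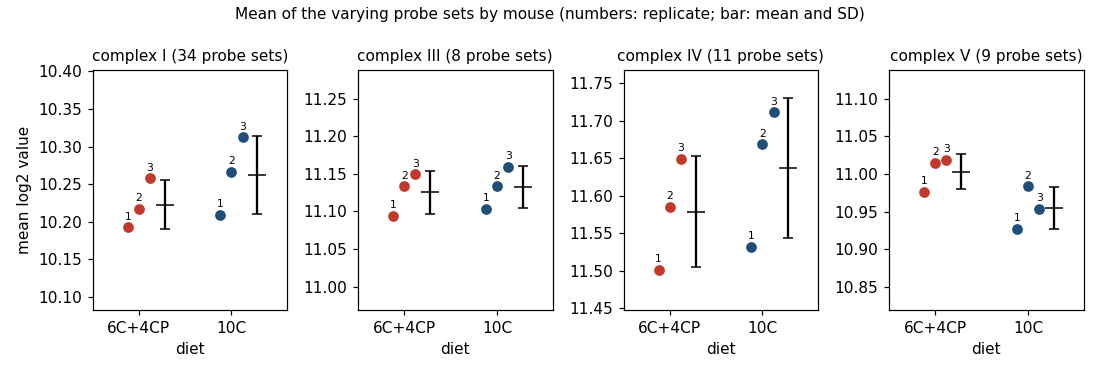
Mean log2 value (vertical axis, same span in each panel) of the varying probe sets of complexes I, III, IV and V by diet (horizontal axis). Red points are 6C+4CP mice and blue points 10C mice, numbered by replicate, with mean and SD as bars; in complexes I, III and IV mouse 1 is the lowest and mouse 3 the highest of each diet, and the diets overlap in all 4 panels.

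Probe sets of one gene did not always move together. Of 16 genes with at least 2 varying probe sets, 10 had the same sign throughout and 6 did not: Ndufa7, Ndufs8, Uqcrc2, Cox6a1, Atp5d and Cycs. Of the 123 member probe sets 34 carry a suffix that marks possible binding to several transcripts, and 21 of these vary. Members of these families have processed pseudogenes in the mouse genome, so such values may include other transcripts.

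The rest of the pathway was read from 12 lists, and 0 of their probe sets passed limma's adjusted threshold. Of their 74 varying probe sets 9 (12.2%) had an unadjusted limma p under 0.05, against 13.1% of all varying probe sets. The diets separated at 15 of the 74, 6 higher and 9 lower, a share close to the 19.9% of all varying probe sets. Those named below as without overlap, list by list, are these 15. Among complex I subunits outside the 31, 3 probe sets varied (2 higher, 1 lower), and Ndufb11, a membrane arm subunit, was higher without overlap at 0.056 (SE 0.022). Complex II, succinate dehydrogenase, which feeds electrons from the citric acid cycle, had 1 higher and 3 lower of 4 varying. Its iron-sulphur subunit Sdhb read 11.42, 11.43 and 11.49 in 6C+4CP mice, against 11.55, 11.65 and 11.69 in 10C mice. All 6C+4CP mice lay below all 10C mice, at a difference of -0.18 (SE 0.048, limma adjusted p = 0.608). The further subunits of complex III had 1 higher and 1 lower of 2 varying, and those of complex V with its inhibitor 1 higher and 3 lower of 4. None of the 11 probe sets of other complex IV subunits and tissue isoforms varied, and the 13 genes of mitochondrial DNA had no probe set in the annotation used here.

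Assembly factors, which help build the complexes and are no part of the finished ones, were lower at most varying probe sets. Over all varying probe sets 52.1% were lower. Of 9 varying complex I assembly probe sets 3 were higher and 6 lower, and 2 separated the diets, both lower, where 9.11% of all varying probe sets do so downwards. These were Ndufaf3 at -0.42 (SE 0.13) and Ndufaf8 at -0.22 (SE 0.038). Ndufaf3 read 7.35, 7.21 and 7.09 in 6C+4CP mice, against 7.54, 7.85 and 7.52 in 10C mice. Of 17 varying assembly probe sets of complexes II to V, 4 were higher and 13 lower, with 5 lower and 1 higher without overlap. The 5 were Cox18 (-0.28, SE 0.084), which helps insert a core subunit of complex IV, Cox20 (-0.22, SE 0.077), Coa3 (-0.24, SE 0.098), Sdhaf2 (-0.13, SE 0.043), which attaches the flavin of complex II, and Sdhaf4 (-0.24, SE 0.11). The higher one was Sco2, a copper chaperone of complex IV, at 0.096 (SE 0.045). The means of the varying probe sets overlapped between the diets in both lists. For complex I assembly they were 8.23, 8.18 and 8.17 in 6C+4CP mice, against 8.28, 8.41 and 8.15 in 10C mice. For complexes II to V they were 8.18, 8.13 and 8.11, against 8.23, 8.30 and 8.15. In both lists 10C mouse 2 had the highest mean, and it was the highest array at 26.2% of all varying probe sets.

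Other lists gave single genes. Coenzyme Q synthesis had 2 higher and 5 lower of 7 varying, with 1 lower without overlap (a Coq9 probe set at -0.036, SE 0.018). That probe set averaged 6.12, below the array medians. At a brighter Coq9 probe set, with a mean of 9.25, the diets overlapped (-0.085, SE 0.043). Other routes of electron entry had 5 higher and 6 lower of 11. There Etfdh, which passes electrons from fatty acid oxidation to coenzyme Q, read 10.89, 10.66 and 10.85 in 6C+4CP mice, against 10.36, 10.50 and 10.42 in 10C mice. It was higher in every 6C+4CP mouse than in any 10C mouse, by 0.37 (SE 0.080, 1.30-fold, limma adjusted p = 0.572). Inner membrane and outer membrane carriers of ATP synthesis had 2 higher and 6 lower of 8, all overlapping. Regulators of mitochondrial transcription had 7 higher and 2 lower of 9, of which 3, for 2 genes, were higher without overlap, where 10.8% of all varying probe sets separate upwards. They were the coactivator Ppargc1b at 0.27 (SE 0.087) and both varying probe sets of Yy1 at 0.20 (SE 0.078) and 0.27 (SE 0.067).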

How the data were processed

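Liver RNA of 3 mice per diet was measured on 1 array per mouse. Per the labels' protocols biotin-labelled RNA was made from 100 ng of total RNA with a 3' IVT kit. The deposited values are on a log2-like scale, made with R 2.7.2 per the submitters' processing notes; how background was corrected, how probes were summarised and which log base applies is unstated in the sources used here. Of 45101 probe sets 64 array controls were left out. Symbols came from GEO's platform annotation, with 34945 probe sets of 1 symbol; Atp5f1 was matched through its Entrez identifier.

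The values were used as deposited. The comparison of 6C+4CP with 10C used limma 3.58.1 under R 4.3.3 (lmFit, then eBayes with no trend or covariates, two-sided), with Benjamini-Hochberg adjustment over all 45037 probe sets; the script was tested on simulated data. Differences are 6C+4CP minus 10C. Varying means a range over 0.01 across the 6 arrays. Members and lists were chosen with earlier results of these data known. The text names, among varying members, the 8 smallest p of complex I and the 4 smallest of each other complex, the extremes of each complex, all of Cycs, probe sets without overlap and genes of mixed sign; other members, and the motifs reported, were chosen after their values or matches were seen, and other forms of these motifs were searched too. From the pathway and cell type lists it names varying genes without overlap. Upstream windows and their coordinates are RefSeq's on GRCm38.p6. Alternatives were other filters, normalizations, a replicate block and leaving out each array.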

Additional observations from a re-analysis of the deposited data

How the results depend on the processing

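Over the whole table the number of probe sets called moved from 109 to 46 with 1 probe set per gene, to 1324 with median centring on varying probe sets, to 1 with quantile normalization, to 3 with a replicate block, and to 0 with the brighter part of the probe sets, with an intensity trend and robust estimation, or with varying probe sets only. Leaving out 1 array gave 285 to 398. The cause was not tested. Of the 109 only 6 varied, and of the 285 to 398 at most 13 did, so those counts rest mostly on shared values. All 1324 called after median centring varied. That centring, however, also gave every probe set with a shared value the same shifts between arrays, and these enter limma's variance estimate. The 1324 are therefore not independent of the shared values either. The same-numbered mice of the 2 diets correlated at 0.477, -0.0893 and 0.0847 in their deviations from the diet means. Differently numbered mice correlated at -0.573 to 0.401. With 3 mice per diet these values cannot settle whether the numbers pair the mice, and the main fit treats them as unpaired.

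For the members 0 probe sets were called in each alternative run on all 6 arrays, the replicate block included, and 0 to 1 without 1 array; the single calls, of Uqcrq, Ndufa7, Ndufs4 and Atp5f1, were all of probe sets with shared values, whose ranges were at most 1e-08. The median difference of complex V was 0.056 when varying meant a range over 0.1. Without 1 array, 15 to 27 of 34 complex I probe sets were lower, an alternative added after seeing the data. With quantile normalization, 30 of 64 members were lower and the median over members was 0.0038; 5 uncalled differences turned positive (Ndufa7 1422976_x_at 0.0041, Uqcrc2 1428631_a_at 0.0043, Uqcrfs1 0.0145, Atp5j 0.0078, Cycs 1422484_at 0.0037).

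Leaving out 1 array, uncalled differences changed sign within these ranges: Ndufa7 -0.035 to 0.0050 (1455749_x_at) and -0.039 to 0.067 (1422976_x_at), Ndufs8 -0.184 to 0.0052 (1455283_x_at), -0.151 to 0.023 (1434579_x_at) and -0.071 to 0.023 (1434212_at), Uqcrc1 -0.135 to 0.045, Uqcrc2 -0.037 to 0.011, Uqcrfs1 -0.0105 to 3.8e-06, Atp5d -0.0102 to 0.127 (1456580_s_at) and -0.098 to 0.066 (1423716_s_at), and Cycs -0.068 to 0.033 (1422484_at). The other 386 values of single probe sets under alternatives kept their sign. For part of them this was fixed in advance, because a replicate block, a filter of probe sets or an intensity trend leaves the difference of a probe set unchanged. The 386 are therefore no measure of stability. No signal over background comes with the values, so what dimness hides cannot be set apart from shared values, and 3 mice per diet limit every comparison.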
